A study of Mus musculus with 6 samples.

Results

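The interferon-inducible GTPases described here are 10 genes of 2 related families, the guanylate-binding proteins *Gbp2*, *Gbp3*, *Gbp4*, *Gbp5*, *Gbp6* and *Gbp7* and the immunity-related GTPases *Irgm1*, *Irgm2*, *Igtp* and *Iigp1*. They were chosen by gene symbol out of 54532 genes with deposited read counts. The libraries came from whole lungs of 3 GR+/+ and 3 GRdim/dim mice, 1 mouse per library. GRdim/dim mice carry a germline point mutation in every cell that impairs dimerization of the glucocorticoid receptor (GR), and GR+/+ mice were their wildtype littermates. Both genotypes had the background 129/SvEv x C57BL/6 and were 10 to 16 weeks old. All 6 mice were anesthetized, ventilated, held in hemorrhagic shock (HS) at a mean arterial pressure of 35 mmHg for 1 h and resuscitated for 4 h with their own blood, colloids and norepinephrine. Lungs without HS were not analysed here, so the values compare genotypes after HS and do not measure the response to HS. A gene count does not show the point mutation itself. Each mouse was operated on a day of its own, so that the day and the mouse cannot be told apart.

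Guanylate-binding proteins (GBPs) and immunity-related GTPases (IRGs) are GTP-hydrolysing proteins that cells make in response to interferon. They assemble on membranes around intracellular bacteria and parasites, help to open these compartments, and GBPs also promote the caspase-11 and NLRP3 inflammasomes. Interferon-gamma acts on them through the GAS element and interferon regulatory factors through the ISRE, and glucocorticoids are known to dampen interferon responses. In the lung, macrophages, endothelial cells and epithelial cells can all express them.

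The promoters of the members carry the letters of these elements, which is why they are shown before the levels. RefSeq promoter windows of GRCm38.p6, from 250 bases before to 50 bases after a transcription start, were found for 7 of the 10 members. *Gbp3* has 2 windows, which makes 8 windows in all, and the second one holds no match. *Gbp4*, *Gbp6* and *Iigp1* were not matched. The ISRE core was searched as GAAA, any 2 bases and GAAA, and the GAS core as TTCNNNGAA, on both strands. Each stretch below runs 5′ to 3′ on the strand of its gene, from chr3:142620584-142620618 (+) for *Gbp2*, chr3:142559979-142560019 (+) for *Gbp3*, chr3:142496684-142496895 (+) for *Gbp5*, chr3:142530210-142530297 (+) for *Gbp7*, chr11:48871430-48871470 (-) for *Irgm1*, chr11:58214882-58214927 (+) for *Irgm2* and chr11:58199491-58199536 (+) for *Igtp*. Capitals mark every ISRE or GAS match, and overlapping ISRE matches run together.
Gbp2: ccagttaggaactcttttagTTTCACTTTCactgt
Gbp3: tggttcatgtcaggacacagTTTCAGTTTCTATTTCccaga
Gbp5: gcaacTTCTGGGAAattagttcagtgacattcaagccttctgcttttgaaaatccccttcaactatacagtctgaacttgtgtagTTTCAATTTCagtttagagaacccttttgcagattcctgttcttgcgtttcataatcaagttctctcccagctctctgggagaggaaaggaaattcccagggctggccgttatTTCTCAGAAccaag
Gbp7: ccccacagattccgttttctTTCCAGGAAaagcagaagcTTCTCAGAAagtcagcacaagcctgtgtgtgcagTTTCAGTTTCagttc
Irgm1: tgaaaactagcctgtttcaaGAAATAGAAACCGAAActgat
Irgm2: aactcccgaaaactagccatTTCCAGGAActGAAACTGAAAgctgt
Igtp: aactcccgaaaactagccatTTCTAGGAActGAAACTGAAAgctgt

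All 7 matched members held an ISRE core, against 3.99% of the 27025 genes with a RefSeq promoter window. The GAS core was found in 4 of the 7, *Gbp5*, *Gbp7*, *Irgm2* and *Igtp*, against 9.55% of all genes. Both cores together were found in these same 4 members and in 0.54% of all genes. The 4 GBP promoters on chromosome 3 hold the ISRE in its reverse-strand form, with TTTC on the printed strand, and the 3 IRG promoters on chromosome 11 hold it as GAAA. The printed stretches of *Igtp* and *Irgm2* differ at 1 of 46 bases. For orientation, 17 of the 35 bases of the *Gbp2* stretch lie in the first exon of its transcript Gbp2-201, and the *Irgm1* stretch lies in an exon of a processed transcript, Irgm1-203. The *Gbp5*, *Irgm1* and *Irgm2* stretches lie inside the deposited bounds of their genes, upstream of the RefSeq start used. The *Igtp* stretch lies before the deposited starts of both *Igtp* and *Irgm2*. A match of letters in a window is a description of the sequence and does not show binding.

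**Figure D1:**
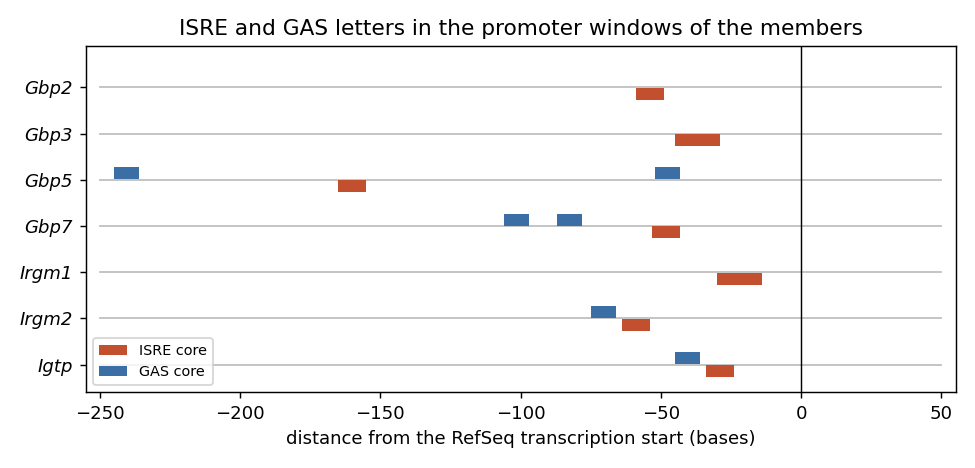
Positions of ISRE core (red, below the line) and GAS core (blue, above the line) letters in the RefSeq promoter windows of 7 interferon-inducible GTPases, with the distance from the transcription start in bases on the x axis. Each of the 7 genes has an ISRE match, with the farthest in *Gbp5* starting at -165 and the nearest in *Irgm1* starting at -24, and GAS matches are drawn for *Gbp5*, *Gbp7*, *Irgm2* and *Igtp*.

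The members lie in 5 places of the genome (build mm10, coordinates as deposited). *Gbp5* (chr3:142493978-142522344), *Gbp7* (chr3:142530342-142550149), *Gbp3* (chr3:142560026-142573209) and *Gbp2* (chr3:142620602-142638008) are neighbours on the plus strand of chromosome 3. *Gbp4* (chr5:105115767-105139586) and *Gbp6* (chr5:105270702-105293698) belong to a second GBP cluster on the minus strand of chromosome 5. *Igtp* (chr11:58199556-58207591) and *Irgm2* (chr11:58199618-58222782) overlap on the plus strand of chromosome 11, where *Irgm1* (chr11:48861968-48871683, minus strand) lies apart from them. *Iigp1* is at chr18:60376029-60392627 on the plus strand.

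Neighbours and copies limit how far single genes can be told apart, because the counting tool and its use of strand are not given in the sources used here. *Igtp* and *Irgm2* share 162 exonic bases on the same strand. *Gbp6* is the least certain member, since 74.3% of the 31-base windows of its transcripts also occur in another gene, mostly in the overlapping *Gm43302* and in *Gbp10*. In the other members the share was 2.88% for *Irgm1* to 15.9% for *Igtp*. *Gbp4* shares 61 exonic bases with *Gbp8* and 60 with *Gbp9*, and *Gbp7* shares 637 with the pseudogene *Gm43802*.

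The 6 libraries held 15687734 to 32082940 counted reads, and every member had at least 49 reads in every library. All 10 members passed the filter on low counts, as did 16568 genes in all. Levels are given as CPM, the reads of a gene per 1000000 reads of its library after TMM scaling, and differences as log2 fold changes of GRdim/dim against GR+/+ with their standard errors (SE). A differentially expressed gene (DEG) had to pass edgeR's quasi-likelihood test at an adjusted *p* under 0.05 and differ by more than 0.5 on the log2 scale. The 5 marker genes of alveolar type 2 cells summed to 15110 to 23570 CPM in the 6 libraries, as the label of the tissue says. GRdim/dim replicate 1 stood apart from the other 5 libraries in every member, so that each member's difference is given with and without it. Its total of 18308562 reads lay within the range of the others.

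In short, all 10 interferon-inducible GTPases were at their highest level in GRdim/dim replicate 1, at 1.57-fold to 5.89-fold the next highest library. GRdim/dim replicates 2 and 3 together lay at 0.915-fold to 1.58-fold the GR+/+ mean. No member was a DEG between genotypes. Of all tested genes, 18.8% were highest in the same library.

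Among the GBPs of chromosome 3, *Gbp2*, which is recruited to vacuoles of parasites and bacteria, had 31.1, 46.3 and 36.3 CPM in GR+/+ replicates 1, 2 and 3. Its level was 103 CPM in GRdim/dim replicate 1 and 42.4 and 39.5 CPM in GRdim/dim replicates 2 and 3. Apart from the one high library, the GRdim/dim values fell inside the GR+/+ range. The log2 fold change was 0.70 ± 0.35 (SE) with an adjusted *p* of 0.574 in edgeR, and 0.12 ± 0.22 without GRdim/dim replicate 1.

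*Gbp7*, a GBP linked to the oxidative killing of bacteria, was also highest in GRdim/dim replicate 1. It had 31.1, 40.0 and 28.0 CPM in the GR+/+ libraries and 104, 42.5 and 31.4 CPM in the GRdim/dim libraries. GRdim/dim replicate 2 was slightly above the highest GR+/+ library, and replicate 3 lay between GR+/+ libraries. The log2 fold change was 0.85 ± 0.39 (SE, edgeR adjusted *p* = 0.537) and 0.17 ± 0.23 without replicate 1.

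*Gbp5*, which promotes assembly of the NLRP3 inflammasome, was at 12.7, 18.8 and 11.3 CPM in GR+/+ and at 33.0, 16.2 and 16.6 CPM in GRdim/dim lungs. Both lower GRdim/dim libraries were under GR+/+ replicate 2. The log2 fold change was 0.63 ± 0.32 (SE, edgeR adjusted *p* = 0.582), and 0.21 ± 0.27 without GRdim/dim replicate 1.

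For *Gbp3*, the neighbour of *Gbp7*, the values were 18.6, 33.6 and 22.8 CPM in GR+/+ and 67.1, 20.8 and 25.0 CPM in GRdim/dim lungs. The fitted difference changed sign with 1 library, from 0.59 ± 0.42 (SE, edgeR adjusted *p* = 0.731) over all libraries to -0.12 ± 0.28 without GRdim/dim replicate 1. In *Gbp3*, GR+/+ replicate 2 was thus higher than GRdim/dim replicates 2 and 3.

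The chromosome 5 members had the largest differences and the largest errors. *Gbp4* was at 5.86, 18.2 and 10.1 CPM in GR+/+ and at 74.8, 22.8 and 13.2 CPM in GRdim/dim lungs. It was the member with the widest spread among GR+/+ lungs relative to its mean (11.4 ± 6.25 CPM, SD, n = 3) and the one whose 2 other GRdim/dim libraries were farthest above the GR+/+ mean, at 1.58-fold. Its log2 fold change was 1.70 ± 0.66 (SE, edgeR adjusted *p* = 0.471), and 0.67 ± 0.44 without GRdim/dim replicate 1.

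*Gbp6* showed the sharpest contrast between 1 library and the rest. It had 2.93, 3.84 and 3.24 CPM in GR+/+ lungs, 3.82 and 3.62 CPM in GRdim/dim replicates 2 and 3, and 22.6 CPM in GRdim/dim replicate 1. The 5 lower libraries lay within 1 CPM of each other. The log2 fold change was 1.58 ± 0.65 (SE, edgeR adjusted *p* = 0.483) and 0.17 ± 0.33 without that library.

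Of the IRGs, *Irgm1*, *Irgm2* and *Igtp* (also called Irgm3) are the regulatory members, which sit on membranes of the host cell and keep the effector IRGs from acting there. *Irgm1* had the smallest difference of the 10 members, with 31.6, 40.0 and 32.8 CPM in GR+/+ and 65.3, 41.6 and 32.8 CPM in GRdim/dim lungs. The excess of GRdim/dim replicate 1 over the next library, 1.57-fold, was also the smallest among the members. Its log2 fold change was 0.42 ± 0.25 (SE, edgeR adjusted *p* = 0.661), and 0.10 ± 0.21 without that library.

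*Irgm2* was at 29.5, 45.6 and 32.5 CPM in GR+/+ and at 83.6, 34.4 and 35.6 CPM in GRdim/dim lungs, so that GRdim/dim replicates 2 and 3 lay inside the GR+/+ range. The log2 fold change of 0.51 ± 0.34 (SE, edgeR adjusted *p* = 0.702) became -0.027 ± 0.23 without GRdim/dim replicate 1. *Igtp*, the overlapping gene, was at 15.0, 25.4 and 19.1 CPM in GR+/+ and at 49.4, 23.1 and 22.9 CPM in GRdim/dim lungs. Its log2 fold change was 0.68 ± 0.32 (SE, edgeR adjusted *p* = 0.549), and 0.22 ± 0.26 without that library.

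*Iigp1* (also called Irga6), an effector IRG that is loaded onto the vacuole of the parasite, was even among GR+/+ lungs with 24.2, 25.1 and 20.2 CPM. It was at 95.0, 22.6 and 30.4 CPM in GRdim/dim replicates 1, 2 and 3. GRdim/dim replicate 3 was also above every GR+/+ library, and replicate 2 was not. The log2 fold change was 1.09 ± 0.47 (SE, edgeR adjusted *p* = 0.50) and 0.20 ± 0.22 without GRdim/dim replicate 1.

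**Figure D2:**
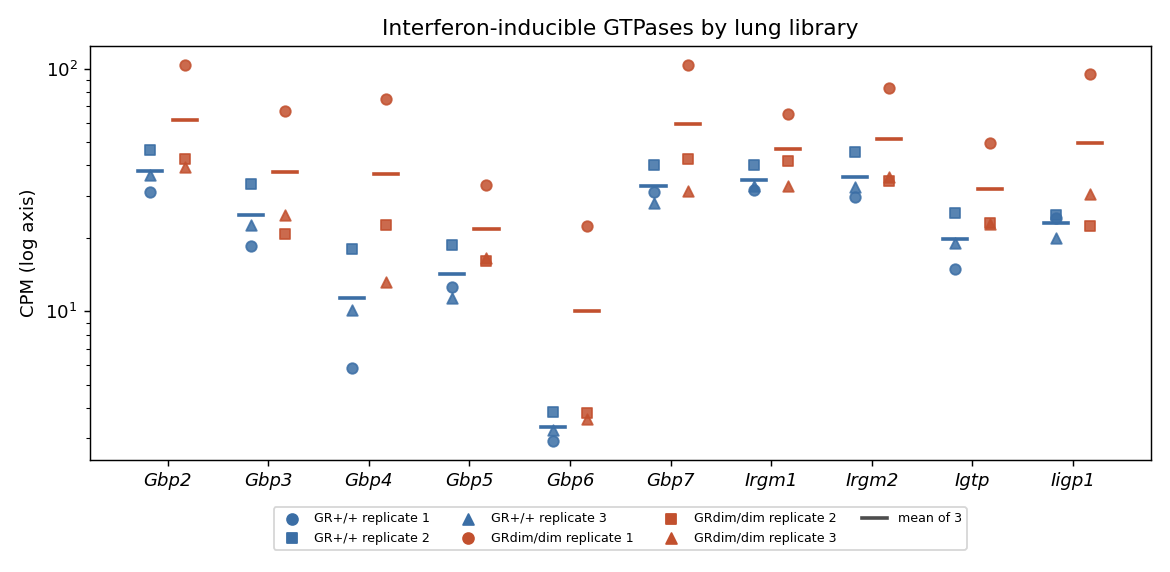
Levels of the 10 interferon-inducible GTPases in CPM (y axis, log scale) in each lung library, GR+/+ in blue and GRdim/dim in red, with 1 symbol per replicate number and a bar for the mean of 3. For each gene the red circle, GRdim/dim replicate 1, is the highest point, and the other 2 red symbols lie near the blue ones.

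Over the family, 0 of 10 members were DEGs by edgeR, where 0.169% of all tested genes were DEGs. At an unadjusted *p* under 0.05 in edgeR, *Gbp4*, *Gbp6* and *Iigp1* were higher in GRdim/dim lungs, 3 of 10 members against 4.91% of all genes (edgeR unadjusted *p* = 0.0324, 0.0365 and 0.0439, adjusted *p* = 0.471, 0.483 and 0.50). DESeq2 also called 0 of 10 (1.7% of all genes were called), with 4 of 10 members at an unadjusted *p* under 0.05 (5.17% of genes) and adjusted *p*-values of 0.306 to 0.707. The median log2 fold change of the members was 0.69, beside 0.01 over all genes tested. The genotypes overlapped in each of the 10 members, whereas 7.77% of all genes had every GRdim/dim library above every GR+/+ library and 7.05% had the reverse. These *p*-values rest on 3 mice per genotype, and a value that misses the threshold does not show that the genotypes are alike.

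Without GRdim/dim replicate 1 the median log2 fold change of the members was 0.17, beside 0.01 over all genes. Then 8 members were higher and 2 lower in GRdim/dim lungs, with unadjusted *p*-values of 0.159 to 0.910 and edgeR adjusted *p*-values of 0.661 to 0.980. None passed an unadjusted *p* of 0.05, where 4.94% of all genes were higher at that level, and none was a DEG, where 0.13% of genes were. The number past an unadjusted *p* of 0.05 moved with other libraries as well. It was 0 without GR+/+ replicate 1 and 0 without GR+/+ replicate 3, 7 without GRdim/dim replicate 2 (4.14% of all genes) and 8 without GRdim/dim replicate 3 (5.53%), with no DEG among the members in any of these edgeR fits. DESeq2 called *Gbp6* and *Iigp1* without GRdim/dim replicate 2 (1.51% of all genes) and *Gbp6* and *Gbp7* without GRdim/dim replicate 3 (2.27%). Without GR+/+ replicate 2, every GRdim/dim library was above every GR+/+ library in 7 members (12.4% of all genes), and this number was 1 without GRdim/dim replicate 2 (12.5%) and 3 without GRdim/dim replicate 3 (14.9%).

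**Figure D3:**
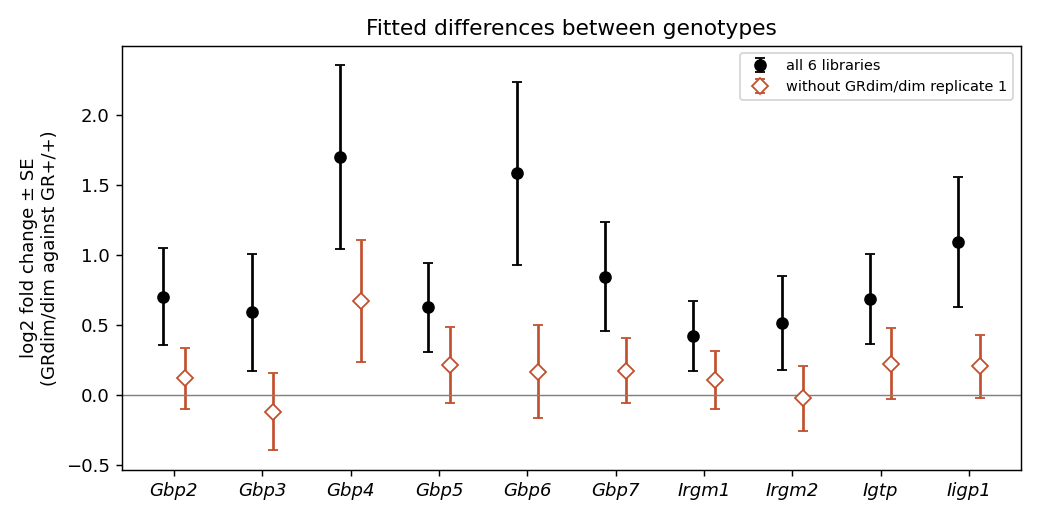
Log2 fold change (GRdim/dim against GR+/+, edgeR) of each member over all 6 libraries (black circles) and without GRdim/dim replicate 1 (red diamonds), with error bars of 1 SE. All 10 black points lie above 0, between 0.42 and 1.70, and without that library 8 are above and 2, *Gbp3* and *Irgm2*, below 0.

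Per kilobase of the exon length listed with the counts, *Gbp2* was the most abundant member in GR+/+ lungs (15.1 ± 3.08 CPM per kb, SD, n = 3). *Igtp* (9.81 ± 2.60), *Irgm2* (9.72 ± 2.31), *Gbp3* (7.66 ± 2.37), *Iigp1* (7.42 ± 0.837), *Irgm1* (6.00 ± 0.784) and *Gbp7* (5.88 ± 1.11) followed in CPM per kb. Each of these overlapped its neighbour in the order within 1 SD. *Gbp5* (2.15 ± 0.597 CPM per kb) and *Gbp4* (1.52 ± 0.834) formed a lower pair that overlapped each other, and *Gbp6* (0.560 ± 0.0776) was lowest, without overlap in the ranges of 1 SD. In GRdim/dim lungs *Gbp2* was also first (24.5 ± 14.3 CPM per kb, SD, n = 3) and *Gbp6* last (1.68 ± 1.83), both also over replicates 2 and 3 alone (16.3 and 0.625 CPM per kb). *Iigp1* (15.8 ± 12.7 CPM per kb) and *Igtp* (15.7 ± 7.53) were level over the 3 libraries. Over replicates 2 and 3 they were at 8.49 and 11.4 CPM per kb. The place of *Iigp1* depends on the length used. Its listed length was 3121 bases against 5823 exonic bases in GENCODE M21, which would give lower values per kb in both genotypes.

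How alike the members were across lungs differed with and without 1 library. The Pearson correlation of a member with the mean of the other 9, on standardized log2 CPM, was 0.929 to 0.997 over 6 libraries including GRdim/dim replicate 1, and 0.240 to 0.964 over the 5 libraries without it. GR+/+ replicate 1 was the lowest library for 7 members and GR+/+ replicate 3 for the other 3. The genes outside the family that came closest to its mean were *Ifi47*, itself an IRG (r = 0.993 over 6 libraries and 0.942 over 5 without GRdim/dim replicate 1), *Xaf1* (0.990 and 0.936), the nucleic acid sensor *Zbp1* (0.989 and 0.887), *Zfp951* (0.989 and 0.905) and *Ifi213* (0.986 and 0.904). Among the GTPases outside the 10 members, *Gbp9* had the highest level, with 18.7, 31.7 and 21.9 CPM in GR+/+ and 150.2, 49.2 and 21.6 CPM in GRdim/dim lungs, and *Gbp2b* had 15.4, 19.9 and 16.7 CPM against 43.8, 15.5 and 20.02 CPM. Of 12 such genes that could be tested out of 13, 11 were highest in GRdim/dim replicate 1 as well. Their median log2 fold change was 0.71 over all libraries and 0.15 without that one, close to the members. None was a DEG. In edgeR 3 were higher at an unadjusted *p* under 0.05 (*Gbp9*, *Gbp11* and *Gm12250*, named after their values were seen), against 4.91% of all genes. In 1, the scarce *Gbp11*, every GRdim/dim library was above every GR+/+ library, against 7.77% of all genes.

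The interferons that induce the family were almost absent from the counts. Of 21 ligand genes, 18 had no read in any library, including *Ifnb1*, and a count of 0 allows a level of up to 0.0935 to 0.191 reads per 1000000 depending on the library (3 counts, counting error only). *Ifng*, the main inducer of GBPs and IRGs, had 0, 2 and 3 reads in the GR+/+ and 0, 12 and 1 reads in the GRdim/dim libraries. The library with the highest GTPase levels thus held no *Ifng* read, at a depth that would not show a level below the limit given. *Ifnk* and *Ifnab* had 3 and 2 reads in total, and no ligand could be tested.

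All 6 receptor genes were expressed, and 0 of 6 passed an unadjusted *p* of 0.05 in edgeR. The receptor for interferon-gamma was at 217 ± 48.9 against 242 ± 30.2 CPM for *Ifngr1* and at 86.3 ± 6.99 against 109 ± 7.89 CPM for *Ifngr2* (GR+/+ against GRdim/dim, SD, n = 3). *Ifngr2* did not overlap between genotypes (log2 fold change 0.34 ± 0.15, SE, edgeR adjusted *p* = 0.521, and 0.32 ± 0.17 without GRdim/dim replicate 1). The receptor for type I interferon was at 97.7 ± 14.0 against 115 ± 13.7 CPM for *Ifnar1* and at 65.3 ± 5.37 against 68.6 ± 8.75 CPM for *Ifnar2*. For the interferon-lambda receptor the values were 31.4 ± 3.35 against 27.8 ± 7.42 CPM for *Ifnlr1* and 56.5 ± 5.48 against 67.2 ± 1.25 CPM for *Il10rb*, which also did not overlap (log2 fold change 0.25 ± 0.16, SE, edgeR adjusted *p* = 0.681). Thus 2 of 6 receptor genes were higher in every GRdim/dim library than in any GR+/+ library, against 7.77% of all genes. Without GRdim/dim replicate 1 the median log2 fold change of the receptors was 0.17, beside 0.20 with it. In that edgeR fit 0 of 6 passed an unadjusted *p* of 0.05.

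Between receptor and GTPase, 12 kinases and transcription factors had a median log2 fold change of 0.18, and -0.00 without GRdim/dim replicate 1. *Irf1*, the factor that acts on ISRE elements downstream of interferon-gamma, was at 114, 127 and 116 CPM in GR+/+ and at 92.5, 85.7 and 138 CPM in GRdim/dim lungs. Its level in GRdim/dim replicate 1, where the GTPases were highest, was below all GR+/+ libraries. *Jak1* (log2 fold change 0.13 ± 0.22) and *Stat2* (0.43 ± 0.23) had edgeR adjusted *p*-values of 0.926 and 0.609, and log2 fold changes of -0.085 ± 0.21 and 0.16 ± 0.20 without GRdim/dim replicate 1. None of the 12 was a DEG by edgeR. Of them 2, *Irf7* and *Nlrc5* (named after their values were seen), were higher at an unadjusted *p* under 0.05 in edgeR (4.91% of all genes). *Irf7* alone was so without that library (4.94% of all genes). *Irf7* amplifies type I interferon responses. It was at 17.6, 19.8 and 16.2 CPM in GR+/+ and at 69.3, 24.4 and 34.1 CPM in GRdim/dim lungs. It did not overlap between genotypes, where 7.77% of all genes were higher in every GRdim/dim library. Its log2 fold change was 1.25 ± 0.34 (SE, adjusted *p* = 0.253 in edgeR and 0.0131 in DESeq2). Without GRdim/dim replicate 1 it was 0.72 ± 0.23 (adjusted *p* = 0.367 in edgeR and 0.252 in DESeq2), so that the DESeq2 call was lost.

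The 7 feedback inhibitors of the pathway included no gene past an unadjusted *p* of 0.05 in edgeR (median log2 fold change 0.16). *Socs3* was higher and *Ptpn11* lower in every GRdim/dim library than in any GR+/+ library (7.77% and 7.05% of all genes). Without GRdim/dim replicate 1 the median was 0.17 and 1 of 7 passed (4.94% of all genes were higher at that level), *Socs3* (log2 fold change 0.65 ± 0.24, SE, edgeR adjusted *p* = 0.445). *Socs3*, which blocks cytokine receptors, was at 148 ± 11.4 against 210 ± 71.7 CPM, *Ptpn11* at 256 ± 32.1 against 201 ± 14.6 CPM and *Pias1* at 93.0 ± 7.47 against 89.6 ± 21.5 CPM (GR+/+ against GRdim/dim, SD, n = 3).

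Genes induced by type I interferon had the same highest library as the members. All 25 were highest in GRdim/dim replicate 1, with a median log2 fold change of 0.94 over all libraries and 0.30 without it. They included *Parp14*, with 84.6, 83.5 and 90.4 CPM in GR+/+ and 153.1, 92.0 and 77.9 CPM in GRdim/dim lungs, and the tetherin gene *Bst2*, with 49.7, 59.1 and 64.1 against 106.5, 66.0 and 95.2 CPM. *Bst2* was higher in each GRdim/dim library than in any GR+/+ library, and *Parp14* was not. *Ifit3* was at 55.1, 78.1 and 68.0 CPM in GR+/+ and at 138, 50.6 and 62.2 CPM in GRdim/dim replicates 1, 2 and 3. GRdim/dim replicate 2 was below every GR+/+ library, and replicate 3 was below 2 of them. No gene of the list was a DEG by edgeR, and 14 were higher at an unadjusted *p* under 0.05 in edgeR (4.91% of all genes). In 9, every GRdim/dim library was above every GR+/+ library (7.77% of all genes). DESeq2 called 3 (1.7% of all genes), *Isg15*, *Oas2* and *Ifi44l* (adjusted *p* = 0.0425, 0.00783 and 0.0104). Without GRdim/dim replicate 1, 4 genes were higher (4.94% of all genes) and 1 lower at an unadjusted *p* of 0.05 in edgeR, and none had a DESeq2 or edgeR call.

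Among genes known as targets of interferon-gamma outside the GTPase families, the tested ones were spread over more libraries in their highest values. Of 12 tested out of 15, 5 were highest in GRdim/dim replicate 1 (18.8% of all genes). The median log2 fold change of the 12 was 0.55 over all libraries and 0.48 without that library. The 3 that did not pass the filter on low counts were all highest in that library too. In GRdim/dim replicates 1, 2 and 3, *Cxcl9* had 36, 33 and 3 reads, *Cxcl11* 2, 0 and 0 and *Ubd* 20, 3 and 0. The spread thus holds for the tested genes only. The proteasome activator gene *Psme1* was at 77.9, 95.8 and 95.1 CPM in GR+/+ and at 118, 123 and 137 CPM in GRdim/dim lungs, and the peptide transporter gene *Tap2* at 51.8, 74.5 and 54.3 against 78.4, 82.8 and 94.0 CPM. *Wars*, a tRNA synthetase gene, was at 182, 182 and 157 against 300, 212 and 240 CPM. In these 3 genes all GRdim/dim libraries exceeded all GR+/+ libraries, as in 5 of the 12 (7.77% of all genes). No gene of the list was a DEG by edgeR or DESeq2. In edgeR 8 were higher at an unadjusted *p* under 0.05 (4.91% of all genes), and 4 without GRdim/dim replicate 1 (4.94%). The difference between these genes and the members was not tested.

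**Figure D4:**
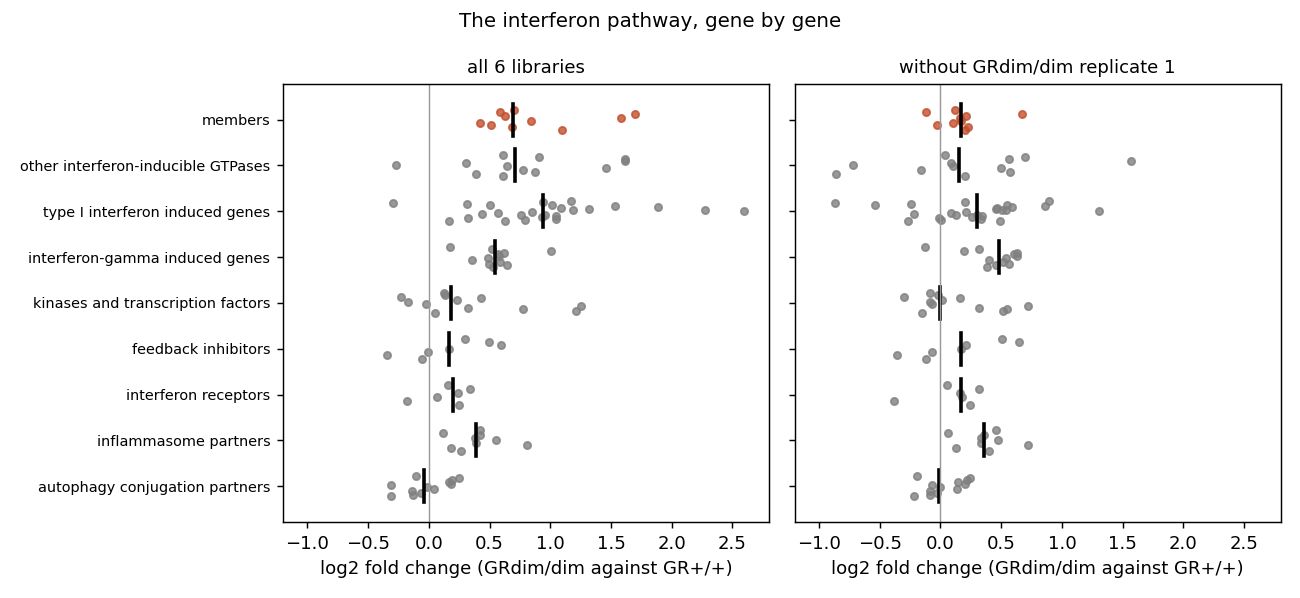
Log2 fold change of each tested gene (GRdim/dim against GR+/+) for the members and 8 lists of interferon pathway genes, over all 6 libraries (left) and without GRdim/dim replicate 1 (right), with a bar at each list's median. The median moves from 0.69 to 0.17 for the members and from 0.94 to 0.30 for type I interferon induced genes, and from 0.55 to 0.48 for interferon-gamma induced genes.

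The partners of the GTPases were read from the same fits. A list of 12 autophagy genes held mostly the conjugation machinery, which places GBPs and IRGs on vacuoles, and also *Becn1* and *Sqstm1*. None of the 12 passed an unadjusted *p* of 0.05 in edgeR or was called by DESeq2. Their median log2 fold change was -0.04 (-0.015 without GRdim/dim replicate 1). In 3 of the 12 every GRdim/dim library was above every GR+/+ library, and in 1 below (7.77% and 7.05% of all genes). *Sqstm1* was at 1443, 1162 and 1667 CPM in GR+/+ and at 999, 1042 and 1399 CPM in GRdim/dim lungs, while *Map1lc3b* was at 301 ± 25.7 against 297 ± 12.5 CPM and *Gabarapl1* at 266 ± 26.8 against 243 ± 18.0 CPM (SD, n = 3). Of 9 inflammasome genes that act with GBPs, 0 were DEGs by edgeR or DESeq2. In edgeR 2, *Il1b* and *Casp4*, were higher at an unadjusted *p* under 0.05 (4.91% of all genes). In the same 2, every GRdim/dim library was above every GR+/+ library (7.77% of all genes). The median log2 fold change of the 9 was 0.39, and 0.36 without GRdim/dim replicate 1, where *Il1b* alone passed (4.94% of all genes). *Il1b* was at 48.2, 32.9 and 30.2 CPM in GR+/+ and at 73.2, 69.1 and 52.6 CPM in GRdim/dim lungs (log2 fold change 0.81 ± 0.22, SE, edgeR adjusted *p* = 0.262, and 0.72 ± 0.24 without that library). *Casp4*, the gene of caspase-11, was at 19.4, 22.7 and 22.0 CPM in GR+/+ and at 31.5, 26.2 and 28.3 CPM in GRdim/dim lungs, without overlap (log2 fold change 0.42 ± 0.18, SE, edgeR adjusted *p* = 0.50, and 0.36 ± 0.20 without GRdim/dim replicate 1). *Gsdmd*, whose product forms membrane pores once caspase-11 has cleaved it, had a log2 fold change of 0.39 ± 0.19 (SE, edgeR adjusted *p* = 0.576), and of 0.33 ± 0.22 without that library. Over all pathway lists, 0 of 95 genes tested were DEGs by edgeR.

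Markers of several cell types moved with the libraries in which the GTPases were high or with genotype. In whole lung, fewer cells of a type and less RNA per cell cannot be told apart. The 10 members summed to 203, 297 and 216 CPM in GR+/+ and to 698, 270 and 251 CPM in GRdim/dim lungs. All 7 neutrophil markers were also highest in GRdim/dim replicate 1, with a summed level of 240 to 466 CPM in GR+/+ lungs and of 1081, 341 and 479 CPM in GRdim/dim lungs. Their most abundant genes were the alarmin genes *S100a9* (348 CPM in GRdim/dim replicate 1 and 85.0 to 168 CPM in the others) and *S100a8* (397 and 69.0 to 132 CPM). No marker of this list was at 0 in all libraries, and the part of neutrophils in the GTPase levels was not tested.

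Summed lymphocyte markers were higher in GRdim/dim lungs, and their sums were not highest in GRdim/dim replicate 1, although 2 of 8 NK cell markers were. The 8 NK cell markers summed to 9.08 to 23.8 CPM in GR+/+ and to 33.8, 45.7 and 28.4 CPM in GRdim/dim lungs, and the 8 T cell markers to 22.6 to 42.4 CPM and to 43.8, 59.5 and 56.2 CPM. The 6 B cell markers summed to 82.3 to 167.5 CPM and to 197.7, 707.7 and 590.6 CPM. In each of these 3 lists every GRdim/dim sum lay above every GR+/+ sum. *Ighm* and *Igkc* made up most of the B cell sum in GRdim/dim replicates 2 and 3, and the other 4 B cell markers summed to 21.1, 49.2 and 23.4 CPM in GR+/+ and to 49.2, 74.8 and 59.0 CPM in GRdim/dim lungs, which leaves GR+/+ replicate 2 level with GRdim/dim replicate 1. The 7 alveolar macrophage markers summed to 403 to 415 CPM in GR+/+ and to 293, 250.4 and 261.0 CPM in GRdim/dim lungs. *Chil3* was the 1 marker of this list that did not overlap, and without it the sums were 167, 164 and 139 CPM against 132, 94.5 and 165 CPM. Much of these reduced sums was *Fabp4*, at 55.3, 77.3 and 22.1 CPM in GR+/+ and 22.2, 10.3 and 82.7 CPM in GRdim/dim lungs. Sums for monocytes (1331 to 2845 CPM against 1368 to 2639 CPM), dendritic cells (56.2 to 89.1 against 63.1 to 96.3), endothelial cells (2465 to 3680 against 2971 to 3279), alveolar type 1 cells (2781 to 4450 against 2586 to 4278) and fibroblasts (719 to 1818 against 1240 to 1667) overlapped between genotypes. *Ace* was the largest part of the monocyte sum in every library (1860, 1697 and 861 CPM in GR+/+ and 644, 1135 and 642 CPM in GRdim/dim lungs). In GRdim/dim replicate 2, *Nr4a1* added 992 CPM. The overlap of this sum therefore says little about the less abundant markers of the list. Of the 7 monocyte markers, 4 were highest in GRdim/dim replicate 1, *Ly6c2*, *Ccr2*, *Plac8* and *Vcan* (18.8% of all genes). The median log2 fold change of the 7 was 0.79 over all libraries and 0.20 without that library. The part of these cells in the GTPase levels was not tested. Sex differed between libraries too. Y-linked genes were expressed in GR+/+ replicate 1 and GRdim/dim replicates 1 and 3, and *Xist* in the others. GR+/+ replicate 1 and GRdim/dim replicate 3, which share this pattern with GRdim/dim replicate 1, had member sums of 203 and 251 CPM.

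**Figure D5:**
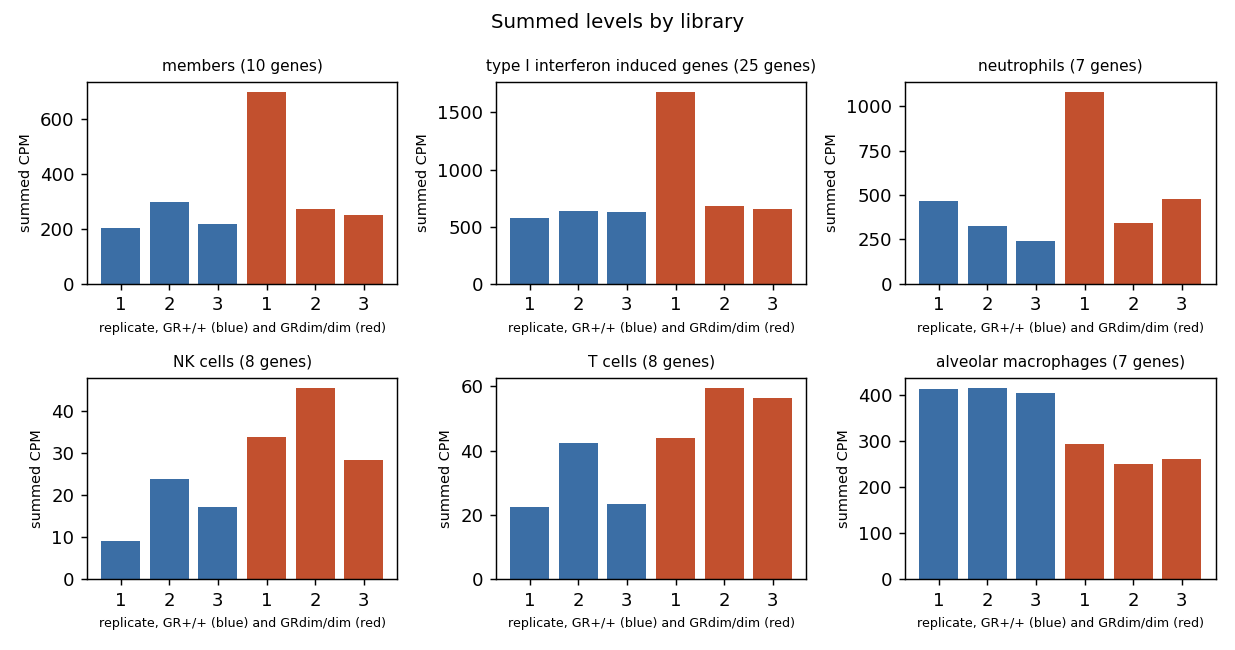
Summed CPM (y axis, from 0) of the 10 members, the type I interferon induced genes and the markers of 4 cell types in each library, GR+/+ replicates in blue and GRdim/dim replicates in red. GRdim/dim replicate 1 is highest for the members (698 CPM), the type I list (1680 CPM) and neutrophil markers (1081 CPM), and not for NK or T cell markers.

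Overlapping genes were also summed with the members. This hardly moved *Gbp6* and *Gbp7*, which had 1.58 and 0.85 alone, so the sums cannot settle how certain *Gbp6* is. *Gbp10*, in which 51.4% of the *Gbp6* windows also occur, was not part of the sums. *Gbp6* with *Gm43302* had a log2 fold change of 1.58, *Gbp4* with *Gbp8* and *Gbp9* of 1.58, *Gbp7* with *Gm43802* of 0.85 and *Igtp* with *Irgm2* of 0.58, and none was a DEG by edgeR.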

How the data were processed

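RNA from lung tissue was isolated with Trizol, captured by poly(A) and sequenced by an outside company. For each of the 6 libraries the authors deposited read counts per gene as whole numbers, neither normalized nor pooled. The submitters' processing notes name mm10 and DESeq2. Aligner, counter, strand setting and annotation release are not given in the sources used here. Of 54532 genes, 54409 were found in GENCODE M21 and 53499 had identical coordinates there. Genotype and replicate number came from the sample labels.

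Library totals were 15687734 to 32082940 reads. Replicates of a genotype differed beyond sampling noise (chi-square per degree of freedom 19.2 to 63.0) and were used as 6 separate samples. Differential expression was tested on the counts in R 4.3.3 with edgeR 4.0.16 (TMM, filterByExpr, robust glmQLFit, glmQLFTest), with Benjamini-Hochberg adjustment over 16568 genes. DESeq2 1.42.0 was the alternative. Log2 CPM used a prior count of 2. Both tools were tested on simulated data. Shared sequence was counted in windows of 31 bases of GENCODE M21 transcripts, and promoter windows are from RefSeq.

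The members and gene lists were chosen with earlier results of these data known, so no *p*-value was computed over a list. Named were all members, the receptors, *Ifng* and *Ifnb1*, up to 3 genes of each list with the highest mean CPM, the 5 genes most like the members, and the leading neutrophil markers. Other genes are named where a count of 5 or fewer called for it, after their values were seen. For the remaining cell types the markers are given as sums, and single markers are named where they carried a sum or a count. As alternatives, edgeR was run with RLE scaling, with low counts unfiltered or held to 10 in every library, with replicate number or sex-linked expression as a further term, without the fold change threshold and without each library in turn, and DESeq2 was run once on all libraries. DESeq2 with a library left out and sums over overlapping genes were added after the data had been seen. One gene named in the paper is left out here.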

Additional observations from a re-analysis of the deposited data

How the results depend on the processing

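Every member had at least 49 reads in every library, the fewest in *Gbp6* in GR+/+ replicate 1. Whether depth limited the members was not tested. Precision rested on 3 mice per genotype. In 7 alternative fits of all 6 libraries the members' log2 fold changes were all above 0 (70 values, 0.36 to 1.74). RLE scaling, a minimum of 10 counts, overlapping genes summed (median 0.70) and no threshold on the fold change moved no count of calls by over 1.5 times. Without a filter on low counts edgeR called 2 members, *Gbp6* (adjusted *p* = 0.00946) and *Gbp7* (0.0156), beside 522 of 31368 genes (1.66%) and 14 pathway genes. In that fit 8 members passed an unadjusted *p* of 0.05, where 4.0% of all genes were higher in GRdim/dim lungs at that level. The cause was not tested. DESeq2 called 274 genes and 4 pathway genes (*Irf7*, *Isg15*, *Oas2* and *Ifi44l*). The sex covariate left 0 members past an unadjusted *p* of 0.05 and 20 genes called. Same-numbered libraries deviated together with correlations of 0.218, 0.0361 and -0.0548, beside -0.266 to 0.194 for the other combinations. Without a reference value for paired mice, these correlations cannot decide whether the replicate numbers pair the mice. With the replicate block, 0 members were called, 0 passed an unadjusted *p* of 0.05, 34 genes were called and the median was 0.59.

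With 1 library left out, edgeR called 0 members (adjusted *p* of 0.309 to 0.980), 0 to 8 passed an unadjusted *p* of 0.05, 4 to 22 genes were called, 0 pathway genes were called, 0 to 7 members did not overlap and the median was 0.17 to 0.91. DESeq2 called 182, 192 and 175 genes without GR+/+ replicates 1, 2 and 3 and 253, 241 and 384 without GRdim/dim replicates 1, 2 and 3, and in the same order 1, 5, 2, 0, 9 and 15 pathway genes, 0, 6, 0, 0, 8 and 8 members past an unadjusted *p* of 0.05 and 0, 0, 0, 0, 2 and 2 members as changed, with a median of 0.16 to 0.91. Its calls were *Gbp6* and *Iigp1* without GRdim/dim replicate 2 (adjusted *p* = 0.0266 and 0.0172, 1.51% of all genes called) and *Gbp6* and *Gbp7* without GRdim/dim replicate 3 (0.029 and 0.0432, 2.27%). Both fits keep GRdim/dim replicate 1. The share of all genes past an unadjusted *p* of 0.05 was not computed for the DESeq2 fits with 1 library left out. With 1 library left out in edgeR the log2 fold change was -0.12 to 0.88 for *Gbp3* and -0.027 to 0.74 for *Irgm2*. The sign turned for both without GRdim/dim replicate 1, where DESeq2 gave -0.13 and -0.039.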

Other observations

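The promoter letters of the members were also counted in the other lists, as a description. The ISRE core was found in 4 of 5 other interferon-inducible GTPases with a RefSeq window, in 12 of 20 type I interferon induced genes and in 2 of 11 interferon-gamma induced genes outside the GTPase families, against 3.99% of all genes. It was found in 0 of 5 receptor genes and 0 of 8 genes of the autophagy list. The GAS core was found in 3 of 5, 4 of 20 and 2 of 11 genes of the first 3 lists, against 9.55% of all genes. It was also found in 2 of 5 receptor genes and 2 of 8 genes of the autophagy list, so it did not set the interferon-induced lists apart. Both cores stood in 3 of 5 of the other GTPases and in 0 of 11 interferon-gamma induced genes.

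The 3 interferon-induced genes below were named after their values were seen. They were lower in GRdim/dim lungs once GRdim/dim replicate 1 was left out, 2 of them also with it. Without that library 6 of 25 type I interferon induced genes and 3 of 12 other GTPases were lower, as were 8045 of 16538 genes. *Tgtp2*, a T cell specific GTPase of the IRG family, had a log2 fold change of -0.27 over all libraries and of -0.72 without that library (edgeR adjusted *p* = 0.903 and 0.596). For *Mx1*, a dynamin-like antiviral GTPase, the values were 0.39 and -0.86 (edgeR adjusted *p* = 0.910 and 0.541). *Ifit2*, which binds viral RNA, had -0.30 and -0.87 (edgeR adjusted *p* = 0.857 and 0.277).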
